A study of Homo sapiens with 3 samples.

Results

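Cells in S phase, the part of the cell cycle in which DNA is copied, were sought among pooled mesothelioma cells whose RNA and open chromatin had been read together. They were taken as the 500 cells with the highest share of their unique molecular identifiers (UMIs, each standing for 1 captured RNA molecule) in 11 replication genes. The 11 are MCM2, MCM4, MCM5, MCM6, PCNA, TYMS, CLSPN, RRM2, UHRF1, HELLS and DTL, and all of them are left out of the results. A cell had at least 1000 UMIs, at least 1000 counts in chromatin peaks and at most 20% of its UMIs from mitochondrial genes. The 500 were 5.61% of 8913 such cells, and the other 8413 served as the comparison.

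The cells came from NCI-H226, a human mesothelioma line that lacks NF2, and from CL3, a single clone of it that was selected for resistance by rising concentrations of a TEAD inhibitor. TEAD proteins are the DNA-binding partners of YAP in the Hippo pathway, which NF2 normally restrains. Parental and CL3 cells, each with the inhibitor GNE7883 or with its solvent control DMSO, were tagged with hashtag antibodies, pooled and run in 1 channel of the 10x Multiome assay. Because the matrix holds no hashtag counts, no cell could be given a line or a treatment here. All cells therefore form 1 pooled sample, conditions were not compared, and there is no p-value, because cells of 1 pool are not replicates of one another.

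Before S phase, origins of replication are licensed when the origin recognition complex, CDC6 and CDT1 load the MCM helicase. Kinases then fire the origins by adding CDC45 and the GINS complex, and polymerases, the PCNA clamp and its loader copy both strands while histones are deposited behind the fork. E2F transcription factors, released from the retinoblastoma protein, drive many of these genes together, and a different set of genes follows in G2 and mitosis.

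The choice rested on few molecules per cell. Among the 500 cells, 260 held 2 UMIs of the 11 genes, 104 held 3, 65 held 4 and 71 held 5 to 13. These UMIs made up 0.136% to 0.394% of a cell's total, with a median of 0.173%. The 100 cells just inside the limit had a median share of 0.142% and the 100 just outside one of 0.13%, so the limit cut through a continuous range. Of the other cells 61.8% held none of these UMIs, and 809 held 2 or more. Because a share was ranked, shallow cells entered with fewer molecules than deep ones. The chosen cells had a median of 1347.5 UMIs and 4006 peak counts, against 1534 UMIs and 4035 peak counts in the others, and median mitochondrial shares of 13.4% and 13.9%. Summed over cells, the 500 gave 844937 UMIs and the others 15743211. Keratins that mark mesothelial cells differed by at most 1.10-fold, between KRT19 at a ratio of 0.945 and KRT7 at 1.10, with KRT18 at 4174 counts per 1000000 UMIs (CPM) in the chosen cells and 4152 CPM in the others, and no immune marker reached 10 CPM. Of 13 mesothelial markers 1 was lower by the rule given in the next paragraph, the lectin ITLN1, on 4 UMIs in the chosen cells (0.319, 0.0861 to 0.826). Over all genes compared, 1.54% were lower by that rule.

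Since all 5 markers given for the label are among the 11 selecting genes, they cannot test it. The label was instead checked with 130 other replication genes in 7 lists by role: origin licensing, origin firing, the replication fork, nucleotide supply, fork checkpoint and repair, chromatin assembly, and E2F and G1/S control. Of these, 106 had at least 10 CPM over all cells and were compared as a ratio of summed CPM, chosen over other cells, with an exact 95% interval that covers counting error only. A gene was counted as higher or lower when its ratio reached 1.5-fold and its interval excluded 1. By that rule 61 of the 106 genes were higher and 0 lower, beside 3.17% higher and 1.54% lower among all 8891 genes compared. The median log2 ratio was 0.73 for the 106 genes and 0.01 for all genes. Together the 106 stood at 5811 CPM in the chosen cells and 3667 CPM in the others, a ratio of 1.58 (1.54 to 1.63), and at 3255 CPM in free RNA, read from barcodes with 1 to 100 UMIs. The 24 genes under 10 CPM pointed the same way, with 22 ratios above 1 and a summed ratio of 2.11 (1.84 to 2.41). With a floor of 20 CPM, 33 of 67 genes were higher, beside 2.48% of 6569 genes. Among cells with at most 10% mitochondrial UMIs, where the 500 highest were compared with 1092 others and 107 of the 500 belonged to the choice above, 14 of 109 were higher and 1 was lower, beside 1.81% higher and 1.44% lower among 8933 genes, and the summed ratio was 1.23.

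**Figure D1:**
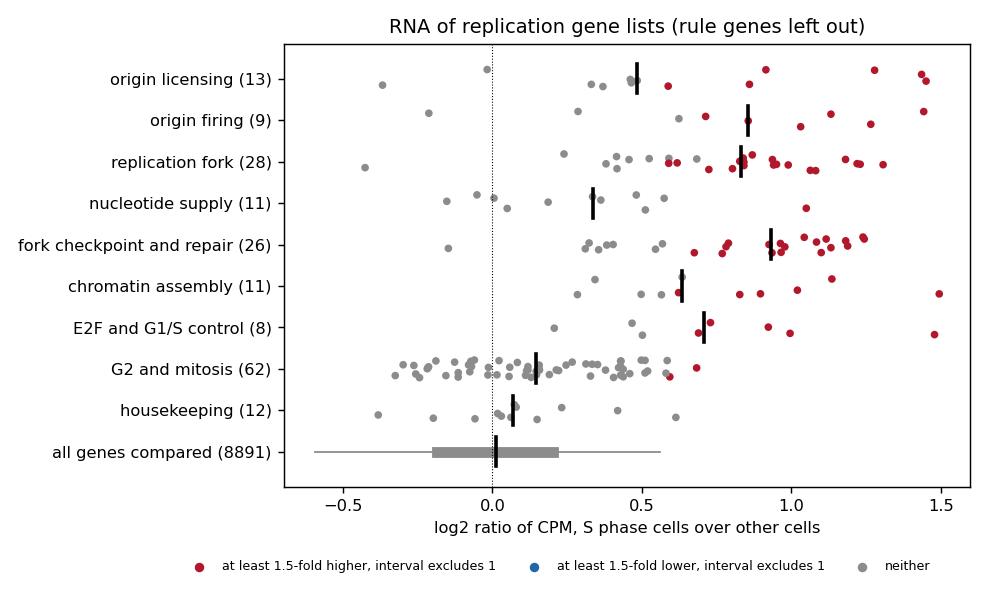
Each point is 1 gene and its log2 ratio of CPM, 500 S phase cells over 8413 other cells (horizontal axis), in 7 replication lists, the G2 and mitosis list and housekeeping genes, with the number compared in brackets. Black bars are medians, red points are at least 1.5-fold higher with an interval that excludes 1, and the bottom row shows the 25th to 75th (thick) and 5th to 95th (thin) percentiles of all genes; the replication lists have medians from 0.34 to 0.93, against 0.01 for all genes.

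The promoters of 6 of these genes are shown because E2F factors act on genes of this kind through their promoters. The first 4 are those of the replication genes with the highest RNA ratios among those of at least 10 CPM, and the last 2 those of the genes with the highest ratios among the ones counted as higher that hold E2F letters upstream of the start. Each is the 250 bases before the start, 5′ to 3′ in the direction of transcription, from RefSeq on GRCh38.p14. Capitals mark the CCAAT box (CCAAT or its reverse complement ATTGG), which is bound by NF-Y, and the E2F letters TTTCCCGC, TTTGGCGC, TTTCGCGC and TTTGCCGC or their reverse complements.
ASF1B (chr19:14136590-14136839, minus strand): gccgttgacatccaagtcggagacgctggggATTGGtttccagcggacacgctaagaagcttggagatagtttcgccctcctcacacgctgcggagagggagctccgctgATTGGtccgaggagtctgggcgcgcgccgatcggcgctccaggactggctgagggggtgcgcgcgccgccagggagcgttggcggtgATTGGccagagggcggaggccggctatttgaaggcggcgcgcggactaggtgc
E2F7 (chr12:77065570-77065819, minus strand): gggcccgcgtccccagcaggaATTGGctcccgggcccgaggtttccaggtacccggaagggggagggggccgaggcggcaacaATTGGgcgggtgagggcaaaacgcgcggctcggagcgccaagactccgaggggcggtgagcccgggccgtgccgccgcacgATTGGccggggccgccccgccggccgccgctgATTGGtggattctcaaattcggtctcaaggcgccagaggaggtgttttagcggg
MCM8 (chr20:5950402-5950651, plus strand): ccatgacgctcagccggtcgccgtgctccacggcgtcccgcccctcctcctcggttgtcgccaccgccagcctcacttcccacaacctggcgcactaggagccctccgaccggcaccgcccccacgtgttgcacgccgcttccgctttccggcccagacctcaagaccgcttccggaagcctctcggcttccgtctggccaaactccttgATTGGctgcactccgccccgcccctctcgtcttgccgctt
WDHD1 (chr14:55027100-55027349, minus strand): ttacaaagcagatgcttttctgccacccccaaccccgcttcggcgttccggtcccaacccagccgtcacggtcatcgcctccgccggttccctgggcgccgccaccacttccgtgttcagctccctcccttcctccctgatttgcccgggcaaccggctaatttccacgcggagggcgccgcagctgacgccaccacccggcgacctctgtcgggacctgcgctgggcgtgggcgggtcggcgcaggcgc
MCM3 (chr6:52284743-52284992, minus strand): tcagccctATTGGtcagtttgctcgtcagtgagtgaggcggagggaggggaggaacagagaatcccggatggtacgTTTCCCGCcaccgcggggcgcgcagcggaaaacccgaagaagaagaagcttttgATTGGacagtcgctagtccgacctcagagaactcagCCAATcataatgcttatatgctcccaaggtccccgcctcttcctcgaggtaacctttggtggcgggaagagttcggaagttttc
GINS2 (chr16:85688955-85689204, minus strand): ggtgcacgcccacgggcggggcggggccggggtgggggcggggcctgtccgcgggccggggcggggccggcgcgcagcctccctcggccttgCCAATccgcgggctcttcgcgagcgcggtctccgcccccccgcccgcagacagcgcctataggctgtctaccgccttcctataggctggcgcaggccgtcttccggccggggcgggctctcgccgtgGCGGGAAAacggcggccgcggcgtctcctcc
ASF1B and E2F7 hold 3 and 4 CCAAT boxes in this window, MCM8 holds 1 and WDHD1 none. MCM3 holds E2F letters from 174 bases before the start and 3 CCAAT boxes, and a further E2F match that begins 4 bases before the start runs past the printed end. GINS2 holds E2F letters from 31 bases before the start, and MCM8 has them 27 bases after it. Over the whole 300-base windows (250 before and 50 after the start), E2F letters occurred in 27 of the 91 compared replication genes with an entry (29.7%), in 396 of the 7037 other compared genes with an entry (5.63%) and in 3.33% of all 27305 promoters. They were present in 20 of 50 genes that were higher and in 7 of 41 that were not. The CCAAT box occurred in 45 of the 91 (49.5%), in 36.5% of the other compared genes and in 35.7% of all promoters. These matches describe letters and say nothing of binding in these cells.

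Origin licensing genes were higher in 6 of 13 compared, with a summed ratio of 1.54 (1.41 to 1.69). CDC6, which loads the helicase at origins, stood at 53.3 CPM in the chosen cells and 19.7 CPM in the others, a ratio of 2.70 (1.93 to 3.71). MCM3, a helicase subunit that was not among the selecting genes, stood at 78.1 and 32.2 CPM (2.43, 1.85 to 3.14), and its partner MCM7 at 71.0 and 37.7 CPM (1.89, 1.42 to 2.46). Among members of at least 10 CPM the related helicase MCM8 had the highest ratio of the list, 2.73 (1.66 to 4.29), on 22 UMIs in the chosen cells. ORC1, of the origin recognition complex, lay under 10 CPM and had 3.21 (1.46 to 6.34) on 10 UMIs. ORC6 and ORC5 of the same complex were also higher, at 35.5 against 19.6 CPM for ORC6 (1.81, 1.20 to 2.64) and 50.9 against 33.9 CPM for ORC5. Geminin (GMNN), the inhibitor of relicensing, had a ratio of 1.40 (0.993 to 1.92) and ORC3 one of 1.38 (1.04 to 1.80), and neither met the rule.

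Origin firing genes were higher in 6 of 9, with a summed ratio of 1.72 (1.52 to 1.94). WDHD1, an adaptor between helicase and polymerase alpha, stood at 89.9 CPM against 33.1 CPM (2.72, 2.11 to 3.46). DONSON, which helps to assemble the firing helicase, had a ratio of 2.40 (1.61 to 3.48), and the GINS subunits GINS2 and GINS1 had 2.19 and 1.64. The firing kinase CDC7 had a ratio of 2.04 (1.16 to 3.38) on 17 UMIs in the chosen cells, a small number of molecules. TICRR and TOPBP1, which join CDC45 to the helicase under kinase control, had ratios of 1.54 (0.95 to 2.38) and 1.22 (0.807 to 1.78), with intervals that include 1.

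At the replication fork 19 of 28 genes were higher and the summed ratio was 1.58 (1.49 to 1.67). ATAD5, which unloads the PCNA clamp, stood at 73.4 CPM against 29.7 CPM (2.47, 1.87 to 3.23). FEN1, which trims Okazaki fragments, stood at 41.4 against 17.7 CPM (2.35, 1.60 to 3.34). POLA1 and PRIM1, which lay down primers, had ratios of 2.12 (1.62 to 2.73) and 2.27 (1.40 to 3.51). POLE and POLE2 of the leading strand polymerase had 2.09 and 2.33, and POLD3 of the lagging strand polymerase had 1.93 (1.44 to 2.55). TIMELESS, which steadies the fork, had 1.99 (1.27 to 2.98).

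Nucleotide supply differed from the other lists in its count, with 1 of 11 genes past 1.5-fold, although the summed ratio was 1.36 (1.26 to 1.47). That gene was TK1, the cytosolic thymidine kinase, at 69.8 CPM against 33.7 CPM (2.07, 1.55 to 2.71). DUT, which removes dUTP, had a ratio of 1.49 (1.27 to 1.74), and RRM1, the large subunit of ribonucleotide reductase, 1.43 (1.18 to 1.70), both with intervals above 1 but under the 1.5-fold limit. The selecting genes TYMS and RRM2, which also act in nucleotide supply, are not in the list. In the deeper chromatin clusters described below 4 of the 11 genes were higher, beside 4.72% of all genes. In the shallow clusters 1 of 11 was higher, beside 1.9% of all genes, near the 1 of 10 of origin firing there. Whether the nucleotide list differs from the others beyond its genes' own spread was not tested.

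Fork checkpoint and repair genes were higher in 18 of 26, with a summed ratio of 1.70 (1.60 to 1.80). BRIP1, a helicase of the Fanconi anaemia pathway, stood at 108.9 CPM against 46.1 CPM (2.36, 1.88 to 2.94). BRCA1, which protects and repairs forks by homologous recombination, stood at 93.5 against 41.0 CPM (2.28, 1.78 to 2.88). XRCC2, which acts in homologous recombination, had a ratio of 2.37 (1.64 to 3.33). The Fanconi anaemia genes FANCD2 and FANCB had 2.14 and 2.19, the polymerase POLQ of end joining 2.17 and the glycosylase NEIL3 2.27. Genes of homologous recombination, crosslink repair and end joining were thus all among those that were higher.

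Chromatin assembly genes were higher in 6 of 11 and had a summed ratio of 1.64 (1.51 to 1.78). The histone chaperone ASF1B had the highest ratio of all 106 genes, 2.82 (1.87 to 4.12), at 36.7 CPM against 13.0 CPM. CHAF1A, the large subunit of the assembly factor CAF-1, stood at 63.9 against 29.1 CPM (2.20, 1.63 to 2.92). EZH2, the methyltransferase of Polycomb complex 2, had a ratio of 2.03 (1.59 to 2.56) and ATAD2, a bromodomain ATPase, 1.86 (1.53 to 2.25). The cohesin acetyltransferase ESCO2 and CASP8AP2, which supports histone gene expression, had 1.77 and 1.54. Of 9 histone genes compared, 2 were higher, beside 3.17% of all genes: HIST1H1B at 2.00 (1.29 to 2.99) and HIST1H1E at 1.66 (1.18 to 2.28). HIST1H4C, the most abundant of them, stood at 236.7 against 192.5 CPM (1.23, 1.06 to 1.42). Most replication-dependent histone mRNAs carry no poly(A) tail, by which the assay captures RNA.

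Regulators of the G1/S step were higher in 5 of 8, with a summed ratio of 1.57 (1.40 to 1.76). E2F7, a repressor that is itself induced by E2F, stood at 41.4 CPM against 14.9 CPM (2.79, 1.90 to 3.99). The pocket protein RBL1 had a ratio of 1.99 (1.31 to 2.93), MYBL2 one of 1.90 (1.25 to 2.78), CDK2, the kinase of S phase entry, 1.66 (1.01 to 2.59) and TFDP1, the dimer partner of E2F, 1.61 (1.23 to 2.08). E2F3 stood at 1.38 (1.06 to 1.77). Of genes of G1 and cell cycle exit, 1 of 18 was higher and 2 were lower, beside 3.17% higher and 1.54% lower over all genes. Their summed ratio was 1.03 (0.973 to 1.09), and so few calls are not read as a result about the list. CDKN1B, the inhibitor p27, had a ratio of 1.66 (1.09 to 2.43), the inhibitor CDKN2B one of 0.608 (0.345 to 0.998), and TOB1, an antiproliferative factor, 0.606 (0.382 to 0.917). CDKN1A, the inhibitor p21, had 1.08 (0.897 to 1.29), and CCND1, cyclin D1, 1.31 (1.13 to 1.52).

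**Figure D2:**
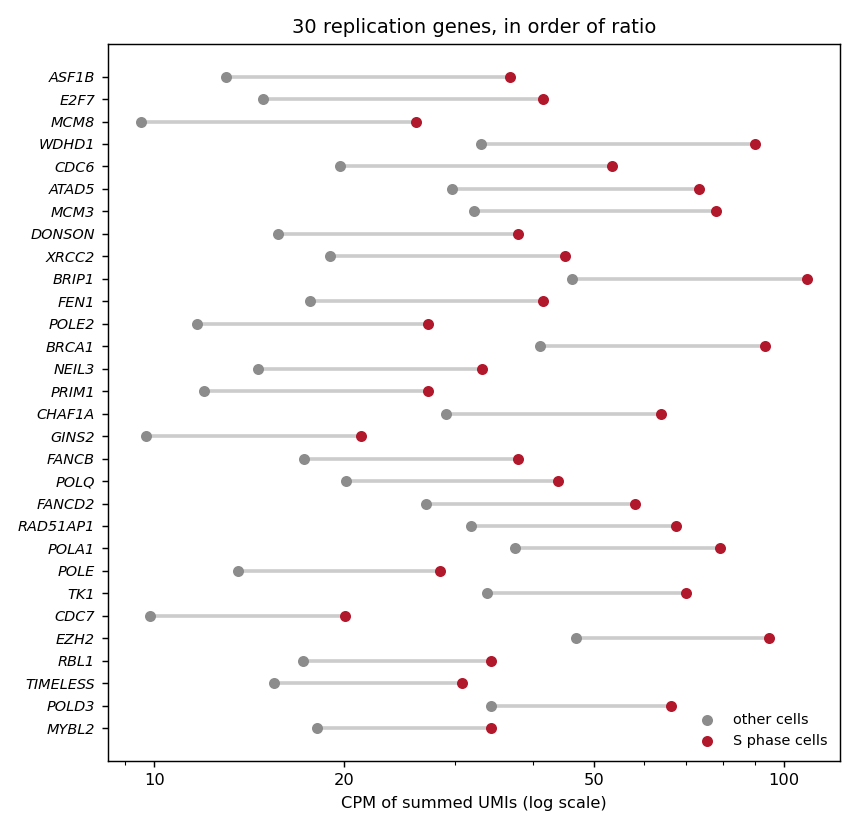
The 30 named replication genes with the highest ratios among those that met the rule, with CPM of summed UMIs on a log axis in the 8413 other cells (grey) and the 500 S phase cells (red). Each red point lies to the right of its grey point, from 36.7 against 13.0 CPM for ASF1B at the top to 34.3 against 18.1 CPM for MYBL2 at the bottom.

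Outside all lists, the genes of at least 20 CPM with the highest ratios included several that act in replication or division. FAM111B, a protease, stood at 50.9 CPM against 18.7 CPM (2.73, 1.93 to 3.76). MMS22L, which acts in the repair of stalled forks, stood at 104.1 against 45.6 CPM (2.28, 1.81 to 2.85), and CENPP of the centromere at 145.6 against 69.3 CPM (2.10, 1.73 to 2.53). DNAJC9, a histone co-chaperone, had a ratio of 2.02, the kinetochore gene KNTC1 1.99 and the kinase MELK 1.97, with CD320, CEP128, BRI3BP and TCHP between 1.94 and 2.06. The lowest ratios rested on 6 to 14 UMIs in the chosen cells. DNAJB9, a chaperone of the endoplasmic reticulum, had 0.323 (0.118 to 0.71), ERI3 of the ERI exonuclease family 0.423 (0.23 to 0.715) and the secreted protein ISM2 0.453 (0.239 to 0.781), with ZBTB7C, ZNF84, LRRC49, KLHL4, MED17, MCUB and CAPRIN2 between 0.334 and 0.45.

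Few genes of the pathways under study met the rule, beside 3.17% higher and 1.54% lower over all genes compared. So few calls are not read as results about these lists. Summed ratios lay near 1 for YAP/TEAD targets and interferon response genes, and further from 1 for MAPK output and NF-kB genes. Of 23 YAP/TEAD targets 0 were higher or lower, with a summed ratio of 1.02 (0.996 to 1.05). CCDC80, the most abundant, stood at 1290 CPM against 1189 CPM. Of 9 genes of MAPK output 1 was higher, the ETS factor ETV5, at 29.6 against 16.5 CPM (1.80, 1.14 to 2.72). The summed ratio of these 9 was 1.17 (1.06 to 1.28). Of 24 interferon response genes 1 was lower, IFIT3 (0.619, 0.398 to 0.922), and their summed ratio was 1.01 (0.948 to 1.08). NF-kB and cytokine genes had 13 of 15 ratios below 1, beside 4270 of 8891 over all genes. Their summed ratio was 0.774 (0.73 to 0.82). SOD2, a mitochondrial dismutase induced by NF-kB, made up most of that sum, at 864.0 CPM against 1166 CPM (0.741, 0.687 to 0.798), and TNFAIP2 was the 1 member that met the rule (0.636, 0.43 to 0.909). Housekeeping genes had 0 of 12 past the rule and a summed ratio of 1.02 (1.00 to 1.05).

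The levels of the lists are given next by the number of selecting UMIs in a cell. That number belongs to the values that chose the cells and moves with depth, so these levels are a description and no check of the label. In all 8913 cells the replication lists stood at 3240 CPM where a cell held 0 of these UMIs, 3810 CPM at 1, 4360 CPM at 2, 5169 CPM at 3, 6379 CPM at 4 and 7140 CPM at 5 or more. G2 and mitosis genes went from 3621 CPM at 0 to 5458 CPM at 2 and 5823 CPM at 5 or more. Deeper cells hold more of these UMIs, with a median depth of 1429 UMIs at 0 and 3664 at 5 or more. With 1000 UMIs drawn from each cell, the replication lists stood at 3509 CPM at 0, 4192 CPM at 1, 4875 CPM at 2 and 6155 CPM at 3 or more. G2 and mitosis genes stood at 3916 CPM at 0, 4477 CPM at 1, 4930 CPM (4715 to 5152) at 2 and 5699 CPM (5248 to 6178) at 3 or more, so at equal depth both kinds of list climbed at each step. Within the 500, replication genes stood at 4259 CPM in the cells chosen on 2 UMIs and at 7793 CPM in those chosen on 5 or more, and G2 and mitosis genes at 4458 and 5484 CPM. The cells chosen on 2 UMIs were therefore nearer to the other cells (3667 CPM) than to the best-supported ones. At 1000 UMIs a chosen cell held a median of 5 UMIs of the replication lists and another cell 3. At least 3 were found in 82.8% of the chosen and 65.8% of the other cells.

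**Figure D3:**
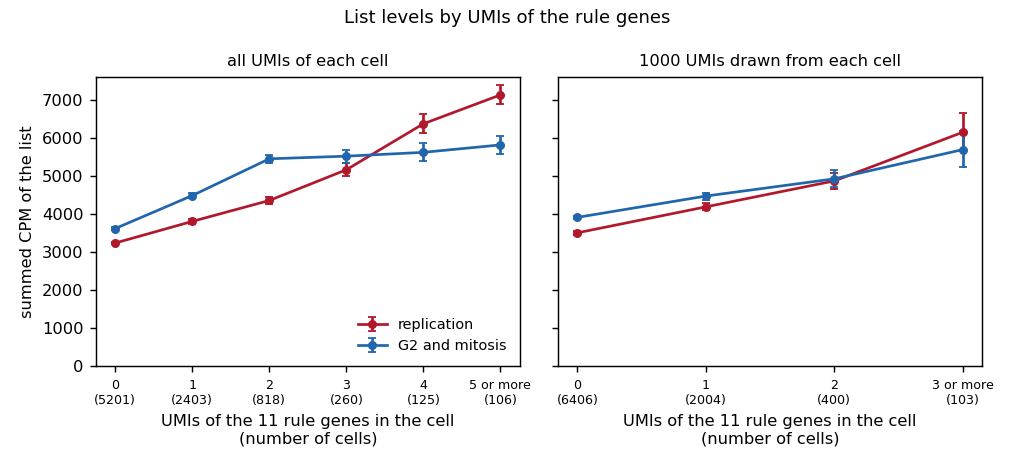
Summed CPM of the replication lists (red) and of G2 and mitosis genes (blue), against the number of UMIs of the 11 selecting genes in a cell, with all UMIs (left) and with 1000 UMIs drawn from each cell (right). Bars are exact 95% binomial intervals for counting error, and cell numbers are in brackets. On the left the red line climbs from 3240 to 7140 CPM, and the blue one lies between 5458 and 5823 CPM from 2 UMIs on. On the right both climb, to 6155 and 5699 CPM.

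Genes of G2 and mitosis were also somewhat higher in sum, at a ratio of 1.15 (1.11 to 1.18), and at 1.31 when cells were ranked with 1000 UMIs drawn from each, where the replication lists stood at 1.53. Of 62 compared, 2 were higher in the chosen cells and 0 lower, a share of 3.23% that is near the 3.17% over all genes. The 2 were RANGAP1, which activates the GTPase Ran (1.61, 1.17 to 2.16), and TACC3 of the spindle (1.51, 1.15 to 1.95). CDK1, the kinase of mitotic entry, had a ratio of 1.42 (1.09 to 1.84) and ANLN, of the cleavage furrow, 1.42 (1.26 to 1.61). For a closer comparison, the 500 cells with the highest share of UMIs in this list were taken in the same way. They shared 20 cells with the 500 in S phase, or 4% of each set, where the S phase cells are 5.61% of all. Without those 20, the G2 and mitosis cells had replication genes at a summed ratio of 1.37 (1.33 to 1.40) over the cells in neither set.

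Leaving the 20 shared cells out, 480 cells of each kind were set side by side. The G2 and mitosis cells were deeper, at a median of 2157.5 UMIs per cell over all 500, and the part of depth was not tested. The replication lists stood at 5929 CPM in the S phase cells and 4920 CPM in the G2 and mitosis cells, a ratio of 1.21 (1.16 to 1.25). Of 112 genes 23 were higher and 5 lower, beside 2.64% higher and 3.92% lower among 8895 genes. Among genes of at least 20 CPM over both sets, POLA1 had the highest ratio, at 81.9 against 32.3 CPM (2.53, 1.69 to 3.85). The helicase subunit MCM3 had 2.27 (1.52 to 3.41), DONSON 2.27, WDHD1 2.15, CHAF1A 2.10 and CDC6 2.10. The lower genes included DBF4, the activator of CDC7, at 33.5 against 78.4 CPM (0.428, 0.268 to 0.661), TICRR (0.452, 0.26 to 0.753), FBXO5, an inhibitor of the anaphase-promoting complex (0.502, 0.272 to 0.883) and the thymidylate kinase DTYMK (0.562). The 5 lower genes of 112 are a share near that over all genes.

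Chromatin accessibility, which the rule did not use, divided the 8913 cells into 10 clusters, called here by number and by their leading genes. Clusters 1 and 2 held 2657 and 2562 cells, were shallow, at medians of 2753 and 2745.5 peak counts per cell, and had no gene above 2-fold among the 3 leading ones. The other 8 clusters had medians of 6084 to 9368.5 peak counts. S phase cells made up 5.76% of cluster 1 (exact 95% interval 4.90 to 6.71) and 6.21% of cluster 2 (5.30 to 7.21). They made up 7.08% (5.64 to 8.76) of cluster 3, led by IL1RAPL1, SAMD3 and HMGA2, and 5.60% of cluster 4, led by PPP2R2B, ADGRL3 and ITGB8. The lowest shares were 1.96% (0.90 to 3.69), or 9 of 459 cells, in cluster 5, led by ISM2, SFTPD and LCN2, and 0.515% (0.013 to 2.84), or 1 of 194 cells, in cluster 9, led by CHI3L1, KLRD1 and FBXO32. Clusters 6, 7, 8 and 10 lay between 2.83% and 6.06%, with intervals that include 5.61%. Cluster 5 held 1.8% of the S phase cells and 5.35% of the others. Levels of NF-kB genes are not given by cluster here, and any part of cluster 5 in the lower NF-kB sum above was not tested.

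The contrast in RNA differed widely between shallow and deeper clusters. In each of the 7 clusters with at least 10 S phase cells, the replication lists were higher in these than in the other cells of the same cluster, with all 7 intervals above 1. The ratio was 1.32 (1.24 to 1.40) in cluster 1 and 1.19 (1.12 to 1.28) in cluster 2. It was 1.90 (1.80 to 2.02) in cluster 3, 1.81 (1.66 to 1.96) in cluster 4, 1.91 (1.73 to 2.11) in cluster 6, 1.57 (1.30 to 1.88) in cluster 7 and 1.70 (1.51 to 1.91) in cluster 8. Clusters 1 and 2 together held 312 of the 500 S phase cells (62.4%) and 58.3% of the others. Of these 312, 67.3% were chosen on 2 UMIs, against 26.6% of the 188 in the deeper clusters, whose median was 4 UMIs.

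In the deeper clusters 77 of 107 replication genes were higher and 0 lower, beside 4.72% higher and 2.9% lower among 8904 genes, and the summed ratio was 1.94 (1.86 to 2.01). In the shallow clusters 16 of 107 were higher and 0 lower, beside 1.9% and 1.22% among 8823 genes, and the summed ratio was 1.26 (1.20 to 1.32). Among 104 genes compared in both, the ratio was greater in the deeper clusters for 94. ASF1B stood at 53.8 against 14.3 CPM in the deeper clusters (3.77, 2.27 to 5.98) and at 20.6 against 11.7 CPM in the shallow ones (1.77, 0.784 to 3.52). CDC6 had 3.52 (2.29 to 5.25) and 1.91 (1.06 to 3.21), and WDHD1 3.41 (2.44 to 4.68) and 2.07 (1.37 to 3.03). TK1 was higher in the shallow clusters as well, at 71.1 against 31.5 CPM (ratio 2.26), beside 68.5 against 35.8 CPM in the deeper ones (1.92, 1.25 to 2.83). G2 and mitosis genes had summed ratios of 1.18 (1.13 to 1.23) in the deeper and 1.12 (1.07 to 1.17) in the shallow clusters. The share of cells chosen on 2 UMIs and the depth both move with this difference, and their parts in it were not tested. The split by depth was made after these values had been seen in part.

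**Figure D4:**
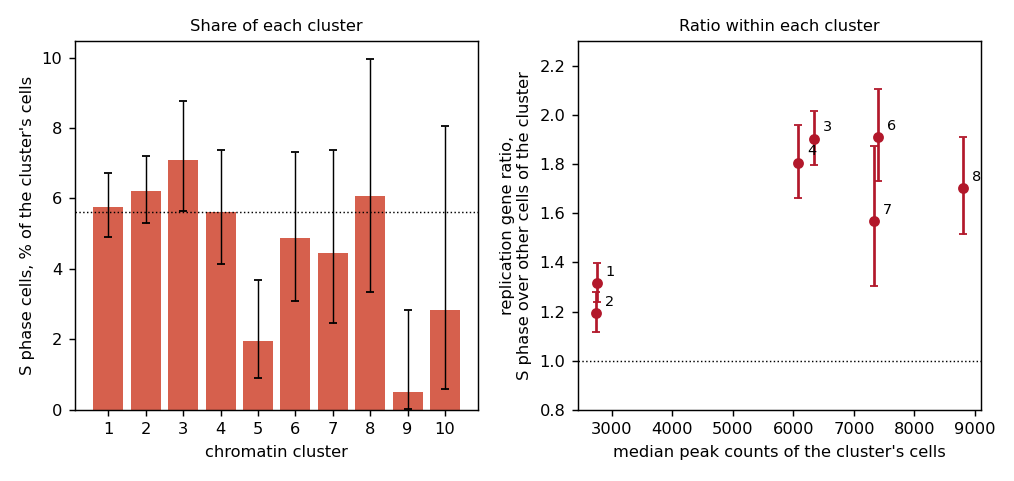
Left, S phase cells as a percentage of each of 10 chromatin clusters, with exact 95% binomial intervals and a dotted line at 5.61%, their share of all cells. Right, the summed replication gene ratio of S phase cells over other cells of the same cluster against the median peak counts of its cells, for the 7 clusters with at least 10 S phase cells, with 95% intervals for counting error; clusters 1 and 2 lie at 1.32 and 1.19 and the other 5 between 1.57 and 1.91.

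Gene-dense DNA is, as a rule, copied early in S phase, so a cell part of the way through holds extra copies there. Autosomal windows of 1 Mb were put into 10 classes by their number of gene starts, with a median of 2 starts in class 1 and 35 in class 10, and each class's share of peak counts was compared. Every 2 counts were treated as 1 event, since 87.9% of the peak entries are even. The ratio of S phase cells over other cells rose from 0.962 (0.95 to 0.975) in class 1 to 1.02 (1.02 to 1.03) in class 10. The odds of class 10 against class 1 were 1.06 (1.05 to 1.08), and 1.07 (1.05 to 1.08) in peaks over 10 kb from any gene start. The slope was also present in the 500 G2 and mitosis cells, 20 of which are S phase cells as well. There the odds were 1.10 (1.09 to 1.12) over all peaks and 1.06 (1.04 to 1.07) in the distant ones. The other cells of that comparison include the remaining S phase cells. The 2 sets were compared with their own other cells and not with each other. In the deeper clusters the odds were 1.09 (1.08 to 1.11), and in the shallow ones 1.02 (0.996 to 1.04).

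In the median S phase cell 25.9% of peak counts lay in class 10 (25% to 75% of cells, 24.8% to 27.0%), against 25.6% (24.5% to 26.7%) in the other cells, so the sets overlap almost wholly cell by cell. By chromosome, the highest ratios were those of chromosomes 22 (1.04, 1.02 to 1.06), 19 (1.02, 1.01 to 1.03) and 17 (1.02, 1.01 to 1.02). The lowest were those of chromosomes 21 (0.965, 0.949 to 0.982), 18 (0.971, 0.957 to 0.986), 4 (0.973, 0.964 to 0.982) and 3 (0.973, 0.966 to 0.98). Peak counts per UMI had medians of 2.62 in S phase and 2.50 in other cells. The line's own chromosome copy numbers, and any difference in them between parental and CL3 cells, were not measured here.

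**Figure D5:**
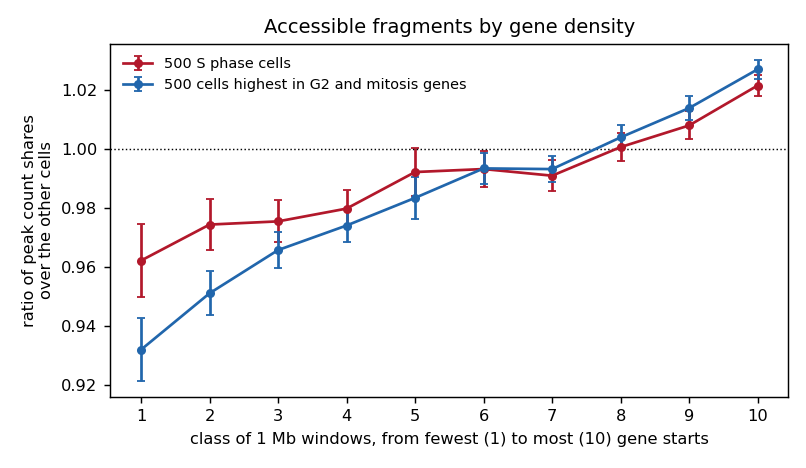
Ratio of the share of peak counts in 10 classes of autosomal 1 Mb windows, ordered by gene starts, for the 500 S phase cells (red) and the 500 cells highest in G2 and mitosis genes (blue), each over its own other cells. Bars are 95% intervals for counting error, and both lines climb, from 0.962 and 0.932 in class 1 to 1.02 and 1.03 in class 10.

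At the starts of the replication genes accessibility differed far less than RNA. Peaks within 1 kb of these starts, 187 in number, had a summed ratio of 1.04 (1.02 to 1.07). Of 125 genes with enough counts, 1 was higher and 0 lower, beside 1.07% higher and 1.38% lower among 16015 genes. The 1 was TIPIN, the partner of TIMELESS at the fork, with a peak ratio of 1.57 (1.20 to 2.02) and an RNA ratio of 1.92. A count of 1 in 125 is near the share over all genes and is not read as a result about the list. The genes whose promoters are printed above had peak ratios of 1.03 (0.814 to 1.30) for ASF1B, 0.961 (0.673 to 1.34) for E2F7, 1.13 (0.636 to 1.87) for MCM8, 0.858 (0.511 to 1.36) for WDHD1, 1.04 (0.76 to 1.41) for MCM3 and 1.26 (0.932 to 1.67) for GINS2. All 6 intervals include 1, while the RNA ratios of the same genes lay between 2.19 and 2.82. With 16.0 to 80.0 events per gene in the S phase cells, the upper ends of the 6 intervals ran from 1.30 to 1.87. The RNA ratios lay above these ends, but these genes were picked for high RNA ratios. Those ratios carry counting error too, and the RNA interval given above for MCM8 overlaps its peak interval. The 6 genes therefore do not show RNA and peaks to be apart gene by gene.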

How the data were processed

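RNA and open chromatin were read in the same pooled cells. The deposited values are raw counts, UMIs for genes and transposition counts for peaks, in 1 matrix of features by barcodes, per the file headers, which name Cell Ranger ARC 2.0.0. GRCh38.p10, MACS2, ArchR 1.0.3 and Cell Ranger 2.0.0 are named in the submitters' processing notes, with no step given for any. Of 651860 barcodes, 11130 passed both count minimums and 8913 the mitochondrial limit. Doublets were not removed, and an alternative left out the deepest 8% of cells.

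UMIs were summed over cells, scaled to CPM and divided (Python 3.11.15, numpy 2.4.6, scipy 1.17.1), with exact conditional binomial 95% intervals without adjustment for multiple genes. UMIs and fragments of 1 pool are not independent samples of cells, so intervals understate the error between cultures. Peaks in at least 20 cells were clustered by term frequency, 30 components, 15 neighbours and Leiden resolution 0.5. Genes were named by a fixed rule: the replication, G1 and G2 lists, those past 1.5-fold first, up to 8 in each, and outside them the 10 highest and 10 lowest of at least 20 CPM, and from other lists members past the rule or highest in CPM. TIPIN, DBF4, the histone genes and the last 2 promoters were chosen after their values were seen. The calculations were tested on simulated data. The cells and gene lists were chosen with earlier results of these data known. Some genes of the lists are counted in them but not reported by name here.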

Additional observations from a re-analysis of the deposited data

How the results depend on the processing

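No paired analysis was possible because all cells form 1 pooled sample. The replication and G2 and mitosis ratios had intervals above 1 under each alternative run, but their size moved. The start-peak interval included 1 with 250 cells (0.994 to 1.07), with at most 10% mitochondrial UMIs (0.97 to 1.04) and in the shallow clusters alone (0.991 to 1.08), and the density interval in the shallow clusters alone (0.996 to 1.04) and for 5.61% of the low-mitochondrial cells (0.995 to 1.08). The replication ratio of 1.58 was 1.65 with 250 cells, 1.53 ranked at 1000 UMIs, 1.66 ranked by number of UMIs, and 1.74 among cells of 2000 or more UMIs and peak counts. It was 1.23 with at most 10% mitochondrial UMIs. The settings with a fixed share of cells and the split by cluster were added after the data had been seen. With 5.61% of the cells chosen there, as in the whole set, the ratio was 1.95 among cells of 2000 or more UMIs and peak counts and 1.29 with at most 10% mitochondrial UMIs. It was 1.94 without the 2 shallow clusters and 1.26 in them alone. The 61 replication genes counted as higher became 14 and, at that fixed share, 11 with at most 10% mitochondrial UMIs, 16 in the shallow clusters alone and 33 with a floor of 20 CPM.

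The count of 419 genes higher or lower was 272 with a floor of 20 CPM, 674 and 255 with 5.61% of the deeper and of the low-mitochondrial cells, 678 without the shallow clusters and 276 in them alone. Of the called genes 67.3% were higher, and 55.7% with at most 10% mitochondrial UMIs. The G2 and mitosis ratio of 1.15 was 1.31 ranked at 1000 UMIs, 1.37 ranked by number of UMIs, 1.34 among cells of 2000 or more UMIs and peak counts (1.19 for 5.61% of them), 1.20 with at most 10% mitochondrial UMIs, 1.22 without the deepest 8% and 1.06 without the cells also highest in those genes. The density odds of 1.06 were 1.04 with 250 cells and 1.04 with 1000 cells, 1.02 with at most 10% mitochondrial UMIs (1.03 for 5.61% of them), 1.12 for 5.61% of the deeper cells, 1.09 without the shallow clusters and 1.02 in them alone. The start-peak ratio of 1.04 was 1.01 with at most 10% mitochondrial UMIs and 1.09 for 5.61% of them. Shares of the best-matching clusters at resolution 1.0 stayed within the intervals given for all 10 clusters. Resolution was the only setting varied for the share of each cluster. The split between shallow and deeper clusters moved with the ranking. The shallow clusters held 312 of the 500 S phase cells, 281 of 500 ranked at 1000 UMIs and 146 of 500 ranked by number of UMIs. The part of the ranking in the share of each cluster was not tested.

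Among 2080 values of 130 named genes, 27 values of genes that met the rule lay on the other side of 1. With at most 10% mitochondrial UMIs they were CDC7 (0.934), TK1 (0.972), FANCB (0.983), TFDP1 (0.70), RANGAP1 (0.908), CDKN1B (0.838), CDKN2B (1.10), TCHP (0.955) and ITLN1 (1.10). For the 89 cells that make 5.61% of that set they were MTBP (0.454), FEN1 (0.342), POLE2 (0.75), POLE (0.50), TIMELESS (0.61), ESCO2 (0.574), CASP8AP2 (0.171), RBL1 (0.813), CDKN1B (0.765), CDKN2B (1.39), ZBTB7C (1.08) and ZNF84 (1.08). In the shallow clusters alone they were CDC7 (0.911), MTBP (0.831) and NEIL3 (0.953), and among cells of 2000 or more UMIs and peak counts DNAJB9 (1.02), MCUB (1.03) and CAPRIN2 (1.08). All but CASP8AP2 had intervals that include 1, and the cause was not tested.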
